A study of Mus musculus with 8 samples.

Results

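Heat shock proteins and chaperones were followed as 82 of the 34745 genes in the table. They are the genes whose symbol starts with Hsp or Dnaj, together with the 8 genes of the cytosolic chaperonin (Cct2, Cct3, Cct4, Cct5, Cct6a, Cct7, Cct8 and Tcp1), and the heparan sulfate proteoglycan Hspg2 and named pseudogenes were left out. By family they comprised 8 chaperonin (CCT) genes, 3 HSP90, 11 HSP70, 3 HSP110, the HSP60 and HSP10 pair, 4 DNAJA, 13 DNAJB, 28 DNAJC, 8 small heat shock proteins and 2 genes for proteins that bind heat shock proteins, Hspbp1 and Hspbap1. A low-count filter left 66 of the 82 for testing. Of the other 16, 9 had no count in any library.

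Chaperones help proteins reach and keep their folded form. In the cytosol HSP70 proteins bind exposed hydrophobic stretches under the control of J-domain (DNAJ) partners and nucleotide exchange factors, HSP90 completes the folding of signalling proteins, and the ring-shaped chaperonin CCT folds actin, tubulin and other clients handed over by prefoldin. The endoplasmic reticulum and the mitochondrion each hold their own set, driven by the unfolded protein response in the first and tied to protein import in the second, while heat shock factors drive the stress-inducible genes of the cytosol.

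RNA was sequenced from 3 progenitor populations that had been sorted as live, lineage-negative CD45+CD127+ cells from the fetal liver of untreated wild-type B6 mice. The common lymphoid progenitors (CLP, n = 3 libraries) were Flt3+CD25-. The innate lymphoid cell precursors (ILCP, n = 3) were Flt3-, α4β7+, CD25-, PD-1+ and CD94-, and the ILC1/3 precursors (ILC1/3P, n = 2) differed from them in the gate by lacking PD-1 and carrying CD94. The labels give 6 to 8 weeks in their cell type field although the tissue is fetal, and they place all libraries in 1 batch; whether libraries stem from different animals or litters is not labelled, so the p-values measure the spread between these libraries, which may be technical.

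Libraries held 4991939 to 7167619 counts in CLP, 6043940 to 6905448 in ILCP and 6310739 to 8082476 in ILC1/3P, with 12230 to 14171 genes detected. Levels are given as CPM, counts relative to the library total, with totals scaled by the trimmed mean of M-values (TMM). The TMM factors were 1.05 to 1.23 in the CLP and ILCP libraries and 0.753 and 0.671 in the 2 ILC1/3P libraries. Among the 8 sort marker genes, Flt3 averaged 459 CPM in CLP, 0.427 in ILCP and 0 in ILC1/3P, Pdcd1 (PD-1) 0, 77.7 and 13.8, and Klrd1 (CD94) 52.2, 44.7 and 1407, so Klrd1 was not at 0 in the CD94- ILCP. Il7r (CD127) and Itga4 (α4) were lower in ILC1/3P than in ILCP (log2 fold change -1.17, adjusted p = 0.00729, and -1.72, adjusted p = 0.00287), although the gates for both populations share them. Itgb7 (β7) averaged 3.94, 72.9 and 52.5 CPM, Il2ra (CD25) 0, 7.57 and 2.30, and Ptprc (CD45) was not called in any comparison (adjusted p at least 0.231). Of the marker lists for other cells, the 8 B lineage genes summed to 2646 to 3413 CPM in CLP against 129 to 191 in the other libraries. The 10 myeloid genes summed to 690 to 922 CPM in CLP, at most 22.8 in ILCP and 49.4 to 84.7 in ILC1/3P, and the 9 T lineage genes to 22.6 to 46.4, 3166 to 4530 and 3764 to 4948. Summed levels of the 10 erythroid genes were 8.83 to 16.5, 13.5 to 19.5 and 18.9 to 28.4 CPM in the same order, with Hbb-y at 0 throughout, and those of the 9 hepatocyte genes 78.3 to 94.9, 28.2 to 74.4 and at most 39.3, with Alb at 0 in ILCP and ILC1/3P. The 10 mast cell, basophil and megakaryocyte genes summed to 2.82 to 6.07, 540 to 673 and 199 to 273 CPM, with 5 of them at 0 in all libraries, and the 8 stromal and endothelial genes to 60.9 to 92.5, 95.1 to 124 and 57.2 to 113. The part of such cells in the results below was not tested, and in bulk libraries fewer cells of a type and less RNA per cell cannot be told apart.

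The summed level of all chaperone genes overlapped between the 3 populations on the TMM scale, and the families differed within that total. All 82 summed to 10292 to 12243 CPM in CLP, 9306 to 10718 in ILCP and 10049 to 10980 in ILC1/3P. The CCT genes stood at 4322, 3608 and 3381 CPM in CLP, 3442, 2748 and 3173 in ILCP, and 2135 and 1578 in ILC1/3P, so both ILC1/3P libraries lay below every other library. The DNAJC genes summed to 1598, 1412 and 1471 CPM in CLP, 2007, 2009 and 1726 in ILCP, and 3082 and 3693 in ILC1/3P, where Dnajc15 alone averaged 1109 CPM against 118 in CLP. Of the 24 DNAJC genes tested, 13 had a log2 fold change above 0 and 11 below 0 in ILC1/3P against CLP. In the test described below, 6 were called higher (25.0%, against 11.8% of all genes tested) and 1 lower (4.17%, against 11.7%). The median of the 24 genes was 0.28 (0.09 against ILCP), beside -0.25 over all genes (-0.23 against ILCP). With totals unscaled that median was -0.44, beside -0.93 over all genes. DNAJB sums were 808 to 965 CPM in CLP, 721 to 858 in ILCP and 512 to 532 in ILC1/3P, while HSP60 and HSP10 together gave 286 to 373, 200.05 to 240 and 535 to 686. HSP90 sums overlapped between the populations, at 907 to 1861 CPM, and HSP70 sums were 2315 to 2944 CPM in CLP, 1616 to 2325 in ILCP and 1873 to 2055 in ILC1/3P. As a share of unscaled counts the 82 genes made up 1.12% to 1.51% of the CLP libraries, 0.975% to 1.25% of the ILCP libraries and 0.736% to 0.756% of the ILC1/3P libraries, so here the ILC1/3P libraries were lowest.

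Single genes were compared by edgeR's quasi-likelihood test over all 13436 genes that passed the filter, with Benjamini-Hochberg adjustment and a call at an adjusted p under 0.05. Log2 fold changes are given ± their standard error. In ILC1/3P against CLP, 10 of the 66 members were higher (15.2%, against 11.8% of all genes tested) and 16 were lower (24.2%, against 11.7%). In ILC1/3P against ILCP, 7 were higher (10.6%, against 8.06% of all genes) and 11 lower (16.7%, against 8.25%). In ILCP against CLP, 1 member was higher and 1 lower, against 3.91% and 2.87% of all genes (6.79% in either direction). The groups of every called member did not overlap, which also held for 99.4%, 99.3% and 99.8% of all called genes in the 3 comparisons in this order. Both ILC1/3P comparisons share the ILC1/3P libraries, and both comparisons with CLP share the CLP libraries. Called in both ILC1/3P comparisons were 6 higher members (Dnajc4, Dnajc14, Dnajc15, Dnajc19, Hsp90b1 and Hspe1) and 10 lower members (Cct2, Cct5, Cct7, Dnajb1, Dnajb3, Dnajb4, Dnajb9, Dnajc10, Hspa13 and Hspbap1). The median log2 fold change of the 66 members was -0.21, -0.15 and 0.03 in the 3 comparisons in this order, beside -0.25, -0.23 and 0.01 over all genes tested.

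**Figure D1:**
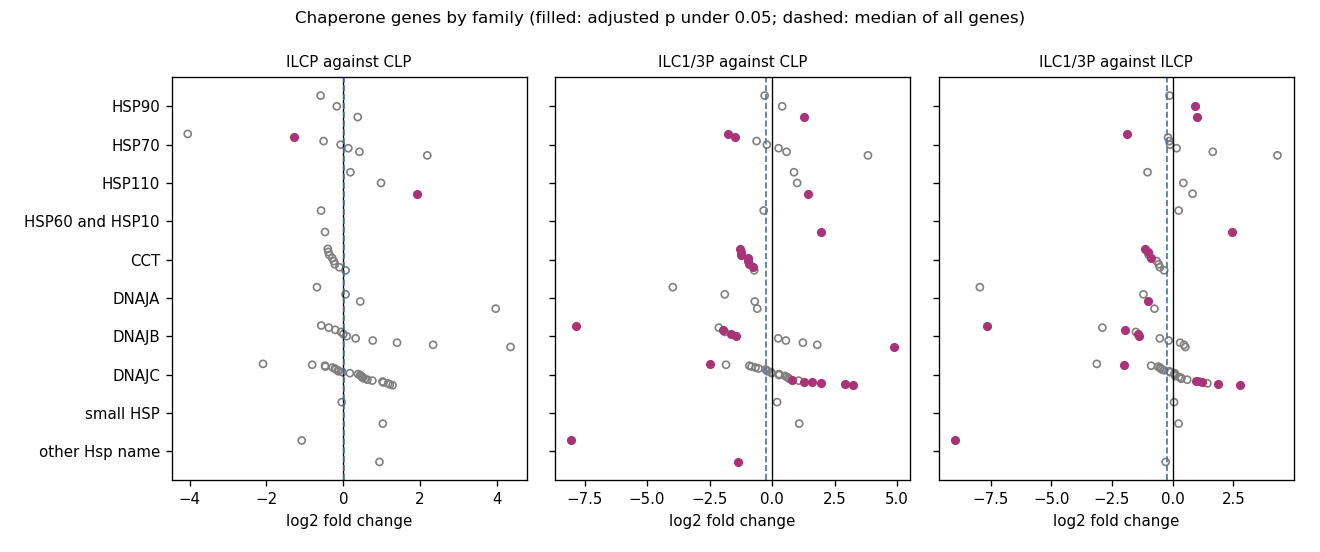
Log2 fold change (horizontal axis; ranges differ between panels) of each of the 66 tested members by family, 1 panel per comparison, with called members filled and the median of all genes dashed. In ILC1/3P against CLP the 7 called CCT genes all lie left of 0 and 6 of the 7 called DNAJC genes lie right of it.

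How many members passed, and how many of all genes, depended on single libraries, left out 1 at a time here and below. Over all genes, calls in either direction against CLP fell from 3163 to 2364 without CLP library 1 and 2418 without CLP library 2. Against ILCP they fell from 2192 to 1419 without ILCP library 1 and 1414 without ILCP library 3. Against CLP, the count of lower members fell from 16 to 8 without CLP library 1, 10 without CLP library 2 and 7 without ILC1/3P library 2, and that of higher members from 10 to 6 without CLP library 2. Against ILCP, 7 higher and 11 lower became 3 and 3 without either ILCP library 3 or ILC1/3P library 2, and 4 and 5 without ILCP library 1. Dnajb1, Dnajb9, Dnajc10 and Cct5 stayed lower, and Dnajc4, Dnajc14, Dnajc15, Dnajc19, Hsp90b1 and Hspe1 higher, than in CLP whichever library was left out. Against ILCP the same held for Dnajb1 and Dnajc10 (lower) and for Dnajc15 and Hspe1 (higher). Scaling by library size alone moved the median of all genes in ILC1/3P to -0.93 against CLP and -0.86 against ILCP, and the members' split to 5 higher and 24 lower and to 2 higher and 18 lower. The members' shares were then 7.58% higher and 36.4% lower against CLP, where all genes gave 7.04% and 20.9%, and 3.03% and 27.3% against ILCP, where all genes gave 3.53% and 15.9%. The calls lost under this scaling were those of Dnajb13, Dnajc3, Dnajc8, Hsp90b1 and Hsph1 against CLP and of Dnajc4, Dnajc14, Dnajc19, Hsp90aa1 and Hsp90b1 against ILCP. With a per-library trend on transcript length removed instead, an alternative added after the data were seen, the calls lost were those of 6 CCT genes (Cct2, Cct3, Cct4, Cct7, Cct8 and Tcp1), Dnajb4, Dnajc8 and Hspa9 against CLP and of Cct2, Cct5, Cct7, Dnajb4, Dnajb9 and Dnajc4 against ILCP. Against CLP, 5 of the 6 higher genes just named kept their call under every one of the 18 other settings run, Hsp90b1 being the exception, and so did all 4 of the lower genes. Against ILCP all 4 named genes did. For Dnajc15 the length setting used 6193 bases, while the length behind its deposited FPKM is 648 bases. Its calls were not tested at the shorter length. Calls gained with the length trend removed were those of Dnajb6 and Hspa4, both higher against CLP.

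**Figure D2:**
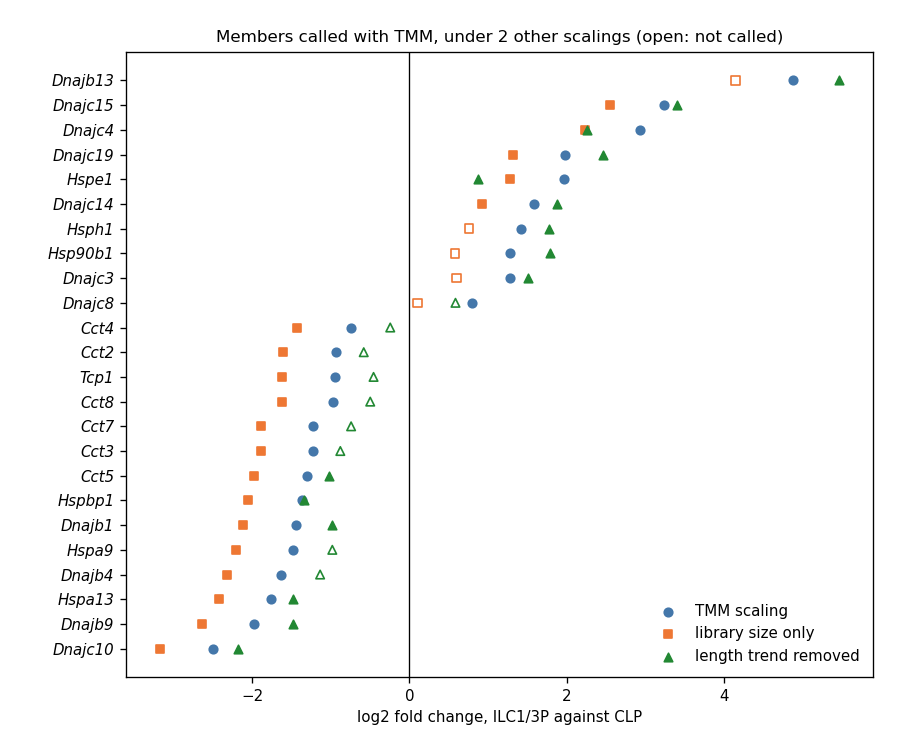
Log2 fold change in ILC1/3P (n = 2) against CLP (n = 3) of the 24 called members with counts in both groups, under TMM scaling, library size alone and with the length trend removed (filled symbols: adjusted p under 0.05; open: not called). Library size alone shifts every gene to the left, and Hsp90b1 goes from 1.28 to 0.58.

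All 8 subunits of the chaperonin CCT were lowest on average in ILC1/3P. Compared with CLP, 7 of the 8 fell (11.7% of all genes did), and the family median log2 fold change was -0.96, beside -0.25 over all genes. Compared with ILCP 3 of 8 fell (8.25% of all genes did), and the median was -0.78, beside -0.23. Cct5, the epsilon subunit (chromosome 15, 31590800 to 31601847, minus strand in mm10), stood at 1031, 693 and 715 CPM in CLP, 689.9, 554 and 600.01 in ILCP, and 372 and 288 in ILC1/3P. The 2 ILC1/3P libraries were the lowest of the 8 and did not overlap with either other group. Cct5 fell against CLP (log2 fold change -1.30 ± 0.27, adjusted p = 0.00471, and no more than 0.0482 with any library left out) and against ILCP (log2 fold change -0.90 ± 0.27, adjusted p = 0.0399). Cct5 was no longer called against ILCP with CLP library 2 or 3, any 1 ILCP library or either ILC1/3P library left out (adjusted p up to 0.231). For Tcp1, the alpha subunit, the values were 518, 462 and 464 CPM in CLP, 387, 408 and 388 in ILCP, and 279 and 221 in ILC1/3P. The 3 populations stepped down without overlap, and the fall from CLP to ILC1/3P passed (log2 fold change -0.95 ± 0.23, adjusted p = 0.0111) while the step from CLP to ILCP did not (adjusted p = 0.507). Tcp1 was no longer called against CLP with ILC1/3P library 2 left out (adjusted p = 0.0896). Tcp1 shares exon sequence with Mrpl18 on the opposite strand, which rose (log2 fold change 1.72 against CLP); whether the counting used strand is not given in the sources used here.

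The beta and eta subunits were also lower than in both other populations. Cct2, the beta subunit, was at 342, 289 and 337 CPM in CLP, 349.7, 282 and 377 in ILCP, and 178 and 159 in ILC1/3P. CLP and ILCP libraries were mixed with each other and both ILC1/3P libraries lay well below them (log2 fold change -0.94 ± 0.24, adjusted p = 0.0155 against CLP; log2 fold change -0.996 ± 0.24, adjusted p = 0.0163 against ILCP). Cct2 was no longer called against CLP with ILC1/3P library 2 left out (adjusted p = 0.0916), nor against ILCP with ILCP library 3 or ILC1/3P library 2 left out (adjusted p up to 0.1). Cct7, the eta subunit, was at 472, 372 and 346 CPM in CLP, 468, 282 and 359 in ILCP, and 216 and 124 in ILC1/3P. ILC1/3P library 2 was the lowest library, and both differences passed (log2 fold change -1.22 ± 0.32, adjusted p = 0.0168 against CLP; log2 fold change -1.12 ± 0.32, adjusted p = 0.0341 against ILCP). Cct7 was no longer called against CLP with CLP library 1 or ILC1/3P library 2 left out (adjusted p up to 0.138), nor against ILCP with CLP library 2 or 3, ILCP library 1 or 3 or ILC1/3P library 2 left out (adjusted p up to 0.234). Cct3, the gamma subunit, measured 345, 263 and 243 CPM in CLP, 303, 193 and 221 in ILCP, and 161 and 80.8 in ILC1/3P, and it fell against CLP (log2 fold change -1.23 ± 0.34, adjusted p = 0.0225). Cct3 was no longer called against CLP with CLP library 1 or ILC1/3P library 2 left out (adjusted p up to 0.167). The delta subunit Cct4 ranged from 329 to 446 CPM in CLP, 286 to 349.7 in ILCP, and 211 to 243 in ILC1/3P, and it fell against CLP (log2 fold change -0.75 ± 0.24, adjusted p = 0.0456). Cct4 was no longer called against CLP with any 1 library left out (adjusted p up to 0.183). The theta subunit Cct8 was at 845, 785 and 670.3 CPM in CLP, 590.3, 502 and 664 in ILCP, and 514 and 270.2 in ILC1/3P. Its ILC1/3P libraries were unequal, the higher of them falling within the ILCP range, and it fell against CLP (log2 fold change -0.97 ± 0.30, adjusted p = 0.0353). Cct8 was no longer called against CLP with any 1 CLP library, ILCP library 1 or 3 or ILC1/3P library 2 left out (adjusted p up to 0.244). Cct6a, the zeta subunit, was the member that did not pass against CLP, with 277 to 402 CPM there and 194 to 204 CPM in ILC1/3P (log2 fold change -0.71 ± 0.27, adjusted p = 0.0757). For the 5 subunits without a call against ILCP the adjusted p ran from 0.0716 to 0.403.

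**Figure D3:**
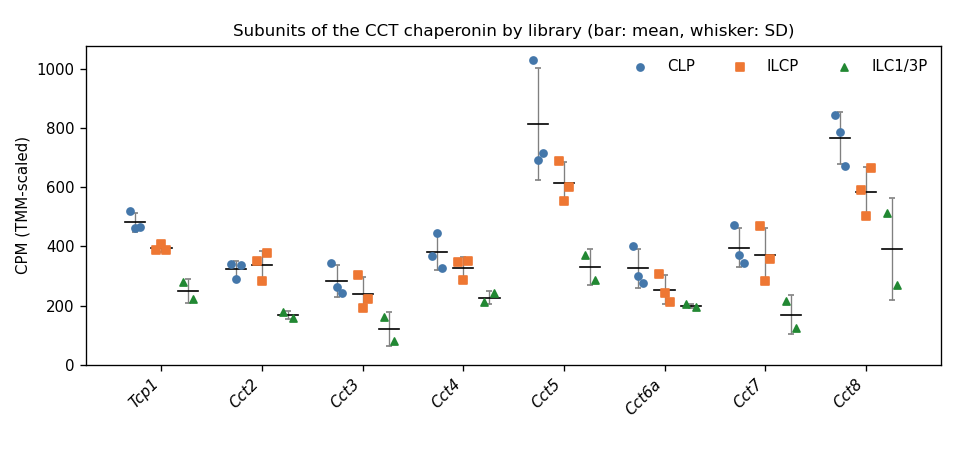
CPM (TMM-scaled, linear axis from 0) of the 8 CCT subunits, 1 point per library, with the mean (bar) and SD (whisker) of each population (n = 3, 3 and 2 in the order plotted). The ILC1/3P mean is the lowest for each subunit, for example 330 CPM for Cct5 against 813 in CLP.

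Fold changes in ILC1/3P also varied with transcript length across the whole transcriptome, and the CCT genes sit where they were lowest. Taking the longest coding transcript of each gene, the median log2 fold change against CLP was 1.02 for genes under 1000 bases, 0.40 for 1000 to 1500, -0.46 for 1500 to 2000, -0.67 for 2000 to 3000, -0.42 for 3000 to 5000 and -0.23 above 5000. Against ILCP the same 6 classes gave 0.85, 0.18, -0.52, -0.63, -0.34 and -0.17, whereas ILCP against CLP ran only from 0.15 to -0.09. The 8 CCT transcripts measure 1853 to 2484 bases, inside the pair of classes with the lowest medians. With the length trend removed, the CCT median became -0.54 against CLP and -0.38 against ILCP, with 1 of 8 called lower against CLP (Cct5, log2 fold change -1.02, adjusted p = 0.00983) and 0 against ILCP (3 at an unadjusted p under 0.05 in edgeR; DESeq2 without the trend called 5). Over all 66 members this setting gave 11 higher (16.7%, against 10.7% of all genes) and 8 lower (12.1%, against 9.9%) against CLP. The share of lower members, which was 24.2% against 11.7% of all genes without this step, was thus near that of all genes. Against ILCP it gave 6 higher and 6 lower (9.09% each, against 6.49% and 6.17% of all genes). Library size alone gave the opposite shift, with all 8 CCT genes called lower in both comparisons, where 20.9% and 15.9% of all genes were lower. The part of length in these results beyond this setting was not tested.

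**Figure D4:**
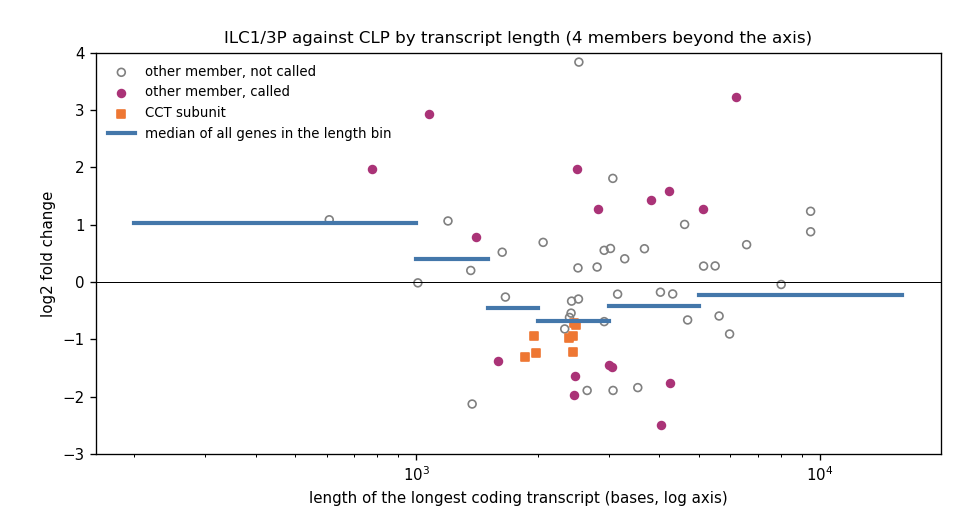
Log2 fold change in ILC1/3P against CLP of each tested member (points) by the length of its longest coding transcript in bases (log axis), with the median of all genes in each length class (horizontal lines); 4 members lie beyond the vertical axis of -3 to 4. The CCT subunits (squares) lie between 1853 and 2484 bases, where the class medians are -0.46 and -0.67.

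Prefoldin and the other CCT helpers went in both directions, and no test compared the list with the CCT genes. Of 14 such genes tested, 7 rose and 1 fell in ILC1/3P against CLP (11.8% and 11.7% of all genes did), 7 rose and 3 fell against ILCP (8.06% and 8.25% of all genes), and 0 were called in ILCP against CLP (2 at an unadjusted p under 0.05). Pfdn1, a prefoldin subunit, stood at 116, 150.5 and 134 CPM in CLP, 167, 267 and 217 in ILCP, and 544 and 719 in ILC1/3P. Both ILC1/3P libraries lay above all others (log2 fold change 2.24 ± 0.27, adjusted p = 0.000163 against CLP). Pfdn4, another subunit, was at 50.6, 67.3 and 90.3 CPM in CLP, 101, 113 and 78.8 in ILCP, and 311 and 443 in ILC1/3P, again without overlap (log2 fold change 2.44 ± 0.31, adjusted p = 0.000221). Txndc9 and Pdcl3, phosducin-like regulators of CCT, rose as well (log2 fold change 1.504, adjusted p = 0.00106, and 1.37, adjusted p = 0.00152). Against ILCP the calls with the smallest p were Pfdn4 (1.95, adjusted p = 0.00197), Pfdn1 (1.54, adjusted p = 0.00304), Pfdn2 (1.67, adjusted p = 0.00497, up to 0.0602 with 1 library left out) and Txndc9 (1.17, adjusted p = 0.00758, up to 0.0502 with 1 library left out). The genes that fell are named after their values were seen. They were Ruvbl2, an ATPase of a co-chaperone complex, in both comparisons (log2 fold change -1.46, adjusted p = 0.00344 against CLP; -1.28, adjusted p = 0.0107, up to 0.0543 with 1 library left out against ILCP), and, against ILCP, the prefoldin subunit Vbp1 (-1.22, adjusted p = 0.031, up to 0.186 with 1 library left out) and the phosducin-like Pdcl (-1.70, adjusted p = 0.0443, up to 0.206 with 1 library left out). Under library size alone the split against CLP became 5 higher and 5 lower (35.7% each, beside 7.04% and 20.9% of all genes). Against ILCP it became 3 higher and 5 lower (21.4% and 35.7%, beside 3.53% and 15.9%). With the length trend removed it was 5 higher and 1 lower in both (35.7% and 7.14%). All genes then gave 10.7% and 9.9% against CLP and 6.49% and 6.17% against ILCP. The median of the list against CLP went from 0.72 to 0.48, and Pfdn5 and Pfdn6 were no longer called against CLP (adjusted p = 0.192 and 0.274).

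Among the cytosolic HSP70 machines, the constitutive HSC70 gene Hspa8 was the most abundant member in CPM and the stress-inducible pair was almost silent. Hspa8 (chromosome 9, 40800984 to 40805200, plus strand) stood at 1906, 1709 and 1787 CPM in CLP, 1316, 1044 and 1429 in ILCP, and 1283 and 1066 in ILC1/3P. Every CLP library lay above every ILCP and ILC1/3P library, and neither difference passed (log2 fold change -0.51 ± 0.21, adjusted p = 0.187 for ILCP; log2 fold change -0.62 ± 0.24, adjusted p = 0.0805 for ILC1/3P). With library size alone the second did (log2 fold change -1.29, adjusted p = 0.00331), and DESeq2 called both. Hspa1a and Hspa1b encode nearly identical inducible HSP70 proteins, so reads may be split between them. Hspa1a had 57, 3 and 3 counts in CLP, 0, 0 and 0 in ILCP, and 9 and 0 in ILC1/3P, and Hspa1b had 12, 10 and 0 counts in CLP, 0, 1 and 0 in ILCP, and 14 and 1 in ILC1/3P. A single CLP library held 57 of the 72 Hspa1a counts. Hspa1b was not called in any comparison (adjusted p at least 0.264). Hspa14, a ribosome-associated HSP70, was at 97.1 to 146 CPM in CLP, 95.3 to 141 in ILCP and 69.02 to 135 in ILC1/3P, with overlapping groups (adjusted p at least 0.716). Hspa2, known for its role in male germ cells, was low, with 0, 0 and 2.96 CPM in CLP, 2.42, 6.36 and 4.93 in ILCP, and 16.4 and 12.3 in ILC1/3P. Its ILC1/3P values were the highest, without a call (adjusted p = 0.109 against CLP and 0.507 against ILCP).

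The HSP110 genes encode nucleotide exchange factors of HSP70, and all 3 had their lowest mean in CLP. Hspa4l was at 15.4, 7.91 and 7.71 CPM in CLP, 29.6, 39.9 and 47.9 in ILCP, and 15.3 and 22.9 in ILC1/3P. All 3 ILCP libraries exceeded all others, and the rise from CLP to ILCP was the only one of its kind among the 66 members (log2 fold change 1.91 ± 0.48, adjusted p = 0.0338). Hspa4l was no longer called in ILCP against CLP with CLP library 2 or 3 or any 1 ILCP library left out (adjusted p up to 0.13). It was not called with library size alone (adjusted p = 0.0517). Hsph1 was at 31.3, 16.9 and 24.01 CPM in CLP, 51.1, 47.3 and 44.9 in ILCP, and 84.7 and 44.7 in ILC1/3P, and it rose in ILC1/3P against CLP (log2 fold change 1.42 ± 0.41, adjusted p = 0.0255) but not with library size alone (adjusted p = 0.23). Hsph1 was no longer called against CLP with CLP library 2 or 3 or ILC1/3P library 1 left out (adjusted p up to 0.227). Hspa4 was at 91.9, 48.4 and 57.7 CPM in CLP, 94.3, 64.4 and 66.9 in ILCP, and 86.7 and 179 in ILC1/3P. ILC1/3P library 2 was the highest of all and library 1 lay among the ILCP values (adjusted p = 0.0851 against CLP). Hspbp1, an exchange factor of another type, was at 115, 103 and 153 CPM in CLP, 71.4, 36.6 and 67.3 in ILCP, and 38.2 and 57.7 in ILC1/3P and fell in ILC1/3P against CLP (log2 fold change -1.37 ± 0.39, adjusted p = 0.0238). Hspbp1 was no longer called against CLP with CLP library 3 or ILC1/3P library 1 left out (adjusted p up to 0.129).

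Of the J-domain partners of cytosolic HSP70, Dnajb1, Dnajb4 and Dnaja1 fell in ILC1/3P. Dnajb6, named after its values were seen, went the other way on the TMM scale. It was at 103 to 143 CPM in CLP, 120.2 to 144 in ILCP, and 187 and 176 in ILC1/3P. Its call against CLP came only with the length trend removed. Dnajb1 (HSP40, the classic stimulator of HSP70; chromosome 8, 83608175 to 83611902, plus strand) stood at 213, 204 and 227 CPM in CLP, 234, 218 and 193 in ILCP, and 80.1 and 77.5 in ILC1/3P. CLP and ILCP libraries were close together and both ILC1/3P libraries lay below all of them, at a mean of 78.8 ± 1.82 CPM (SD, n = 2) against 215 ± 11.9 CPM (SD, n = 3) in CLP. It fell in both comparisons (log2 fold change -1.45 ± 0.24, adjusted p = 0.00137 against CLP; log2 fold change -1.45 ± 0.24, adjusted p = 0.00271 against ILCP) and also with the length trend removed (log2 fold change -0.99, adjusted p = 0.0114 against CLP). Dnajb4, a close relative, was at 37.97, 48.9 and 29.4 CPM in CLP, 31.4, 51.5 and 62.4 in ILCP, and 11.2 and 13.7 in ILC1/3P. The groups did not overlap (log2 fold change -1.64 ± 0.46, adjusted p = 0.0244 against CLP; log2 fold change -1.96 ± 0.47, adjusted p = 0.0154 against ILCP). Dnajb4 was no longer called against CLP with CLP library 1 or 2 or either ILC1/3P library left out (adjusted p up to 0.0996), nor against ILCP with ILCP library 3 or either ILC1/3P library left out (adjusted p up to 0.0655). With the length trend removed neither Dnajb4 call held (adjusted p = 0.106 and 0.0623). Dnaja1 was at 237, 216 and 152 CPM in CLP, 265, 292 and 265 in ILCP, and 157 and 110.4 in ILC1/3P, and it fell against ILCP (log2 fold change -1.03 ± 0.28, adjusted p = 0.027). Dnaja1 was no longer called against ILCP with any 1 ILCP library or ILC1/3P library 2 left out (adjusted p up to 0.185). Against CLP, where the groups overlapped, it did not pass (adjusted p = 0.145). Dnaja2 was at 225, 214 and 174 CPM in CLP, 258, 213 and 169 in ILCP, and 133 and 121 in ILC1/3P without a call (adjusted p = 0.0855 against CLP and 0.0813 against ILCP). Dnaja3, which acts in mitochondria, was at 35.8, 24.3 and 20.3 CPM in CLP, 13.1, 19.8 and 17.2 in ILCP, and 11.02 and 3.31 in ILC1/3P, likewise without a call (adjusted p = 0.0604 and 0.238). Dnaja4, the last DNAJA gene, had 7, 0 and 0 counts in CLP, 83, 0 and 15 in ILCP, and 0 and 0 in ILC1/3P, and a single ILCP library held 83 of its 105 counts.

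The cytosolic HSP90 genes were not called lower in ILC1/3P. Hsp90aa1, the inducible form, was at 325, 395 and 372 CPM in CLP, 225, 270.2 and 229 in ILCP, and 371 and 594 in ILC1/3P. ILCP libraries were the lowest, and the level in ILC1/3P was above ILCP (log2 fold change 0.998 ± 0.25, adjusted p = 0.0206) and not different by the test from CLP (log2 fold change 0.41 ± 0.26, adjusted p = 0.275). Hsp90aa1 was no longer called against ILCP with ILCP library 1 or 3 or ILC1/3P library 2 left out (adjusted p up to 0.197). With library size alone neither passed, and the difference from CLP turned to -0.28. Hsp90ab1, the constitutive form, was at 754, 456 and 552 CPM in CLP, 702, 478 and 389 in ILCP, and 351 and 606 in ILC1/3P, with overlapping groups throughout (adjusted p = 0.572 against CLP). In the deposited FPKM (a level per exon length and unscaled library total), its mean was 117 in CLP, 101 in ILCP and 58.0 in ILC1/3P. Neither library size alone nor limma called Hsp90ab1 against CLP. Of 31 co-chaperones and regulators of HSP70 and HSP90, 1 rose and 8 fell in ILC1/3P against CLP (3.23% and 25.8%, beside 11.8% and 11.7% of all genes), and 2 rose and 8 fell against ILCP (6.45% and 25.8%, beside 8.06% and 8.25%). Stip1, the adaptor that hands clients from HSP70 to HSP90, stood at 253, 191 and 132 CPM in CLP, 222, 81.7 and 180.3 in ILCP, and 28.6 and 34.98 in ILC1/3P. Both ILC1/3P libraries were lower than any other (log2 fold change -2.60 ± 0.45, adjusted p = 0.00173 against CLP; log2 fold change -2.35 ± 0.45, adjusted p = 0.00497 against ILCP). Bag2 (log2 fold change -2.82, adjusted p = 0.00315), the immunophilin Fkbp4 (-2.34, adjusted p = 0.00315) and the phosphatase Ppp5c (-2.72, adjusted p = 0.00332) fell against CLP. Cdc37, which brings kinases to HSP90, fell against ILCP (-1.84, adjusted p = 0.00842), where Bag2 was also lower (-2.19, adjusted p = 0.0158, up to 0.0807 with 1 library left out) and the cyclophilin Ppid higher (1.05, adjusted p = 0.0176, up to 0.13 with 1 library left out). Scaled by library size alone, the list gave 0 higher and 17 lower against CLP and 0 higher and 11 lower against ILCP, where 20.9% and 15.9% of all genes were lower. With the length trend removed it gave 4 higher and 7 lower against CLP (12.9% and 22.6%, beside 10.7% and 9.9% of all genes). Against ILCP that setting gave 4 higher and 4 lower (12.9% each, beside 6.49% and 6.17%). In ILCP against CLP the list held 1 higher gene, Ahsa2 (1.13, adjusted p = 0.0251, up to 0.1 with 1 library left out), and 1 lower gene, Ppid (-0.89, adjusted p = 0.0463, up to 0.17 with 1 library left out).

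The immediate early and cell cycle lists were measured beside these genes. The 20 immediate early and dissociation genes summed to 3202 to 4248 CPM in CLP, 3499 to 5409 in ILCP and 3039 to 4592 in ILC1/3P. These ranges overlapped. In ILC1/3P against CLP 4 rose and 5 fell (11.8% and 11.7% of all genes did), with 3 and 5 against ILCP (8.06% and 8.25%), and 2 and 0 in ILCP against CLP (3.91% and 2.87%). The smallest p against CLP were those of Nfkbia (log2 fold change 3.43, adjusted p = 3.78e-05), Nr4a1 (-2.95, adjusted p = 0.000161), Zfp36 (-2.73, adjusted p = 0.000662) and Ier5 (2.23, adjusted p = 0.00132). Against ILCP they were those of Ier2 (-2.09, adjusted p = 0.000665), Nr4a1 (-2.58, adjusted p = 0.000926), Junb (-1.98, adjusted p = 0.00245) and Nfkbia (1.58, adjusted p = 0.00588, up to 0.0718 with 1 library left out). In ILCP against CLP the called genes were Dusp1 (2.30, adjusted p = 0.00021) and Nfkbia (1.86, adjusted p = 0.00195). The 20 cell cycle genes summed to 2075 to 2439 CPM in CLP, 1975 to 2329 in ILCP and 7937 to 8627 in ILC1/3P, and 9 rose and 1 fell against CLP, 11 and 0 against ILCP, and 0 and 2 in ILCP against CLP. Birc5 (log2 fold change 3.76, adjusted p = 2.51e-06), Cdk1 (4.63, adjusted p = 3.32e-06), Tyms (2.97, adjusted p = 4.76e-05) and Mki67 (2.99, adjusted p = 7.52e-05) had the smallest p against CLP, and Cdk1 (4.47, adjusted p = 3.69e-05), Birc5 (3.08, adjusted p = 5.19e-05), Tyms (3.02, adjusted p = 0.000174) and Pcna (2.47, adjusted p = 0.00029) against ILCP. The lower genes in ILCP against CLP were Mcm2 (-1.15, adjusted p = 0.0347, up to 0.141 with 1 library left out) and Mcm6 (-1.02, adjusted p = 0.0482, up to 0.161 with 1 library left out). The part of division or handling in the chaperone levels was not tested.

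Genes of the endoplasmic reticulum went both ways in ILC1/3P, and the promoters of 3 of them are shown because they alone among the members with a window share a long motif. The windows are from RefSeq on GRCm38.p6, from 250 bases before to 50 after each start, and 67 of the 82 members had one. The ER stress element, searched on both strands as CCAAT followed by 9 bases of any kind and CCACG, was found in 39 of 32851 windows (0.119%). Of the 86 windows of the 67 members, 3 held it, those of Hspa5, Hsp90b1 and Dnajc3. A match is a run of letters and is not evidence that a factor binds there. The stretches run from 220 bases before the start up to the base before it, 5′ to 3′ on the gene's strand, with the matches in capitals. They lie at chr10:86705445-86705664 (minus strand), chr14:118937712-118937931 (plus) and chr2:34771870-34772089 (plus). Hsp90b1 has 2 matches, at -212 to -194 on its own strand and at -107 to -89 on the other, Dnajc3 has 1 at -105 to -87 and Hspa5 has 1 at -65 to -47, close to the start.
Hsp90b1: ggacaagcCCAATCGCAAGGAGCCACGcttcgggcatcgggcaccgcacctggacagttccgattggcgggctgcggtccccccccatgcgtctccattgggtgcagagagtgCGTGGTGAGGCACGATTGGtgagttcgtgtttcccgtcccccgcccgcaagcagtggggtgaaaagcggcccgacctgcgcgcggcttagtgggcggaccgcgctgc
Dnajc3: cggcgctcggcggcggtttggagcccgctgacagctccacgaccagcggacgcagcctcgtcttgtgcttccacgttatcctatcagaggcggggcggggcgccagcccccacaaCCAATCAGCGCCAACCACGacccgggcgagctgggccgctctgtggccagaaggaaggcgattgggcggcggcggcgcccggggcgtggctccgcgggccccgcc
Hspa5: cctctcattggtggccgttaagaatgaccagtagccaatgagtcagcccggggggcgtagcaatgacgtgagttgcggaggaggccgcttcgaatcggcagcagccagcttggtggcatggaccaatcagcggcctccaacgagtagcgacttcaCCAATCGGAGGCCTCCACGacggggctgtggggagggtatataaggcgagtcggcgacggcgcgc

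The 3 genes with the element did not move alike. Hsp90b1 (GRP94, the HSP90 of the endoplasmic reticulum; chromosome 10, 86690209 to 86705509, minus strand) stood at 339.9, 208 and 222 CPM in CLP, 410, 301 and 289 in ILCP, and 587 and 661 in ILC1/3P. Both ILC1/3P libraries exceeded all others, and it rose against CLP (log2 fold change 1.28 ± 0.28, adjusted p = 0.0058, no more than 0.0372 with any library left out) and against ILCP (log2 fold change 0.91 ± 0.28, adjusted p = 0.0452). Hsp90b1 was no longer called against ILCP with CLP library 2 or 3, ILCP library 2 or 3 or either ILC1/3P library left out (adjusted p up to 0.177). With library size alone the difference from CLP was 0.58 (adjusted p = 0.174). Dnajc3 (p58IPK, which also restrains the kinase PERK) was at 105, 80.6 and 64.3 CPM in CLP, 224, 107 and 178 in ILCP, and 225 and 181 in ILC1/3P. CLP was lowest, ILCP and ILC1/3P overlapped, and the rise in ILC1/3P against CLP passed (log2 fold change 1.28 ± 0.34, adjusted p = 0.0165), though not with library size alone (0.60, adjusted p = 0.261). Dnajc3 was no longer called against CLP with CLP library 2 or 3 or ILC1/3P library 1 left out (adjusted p up to 0.08). Hspa5 (BiP, the HSP70 of this compartment) was at 519.96, 332 and 318 CPM in CLP, 579.8, 358 and 629 in ILCP, and 357 and 811 in ILC1/3P. Its 2 ILC1/3P libraries were 357 and 811 CPM, straddling the other groups, and no difference passed (log2 fold change 0.58 ± 0.37, adjusted p = 0.283 against CLP).

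Of the other members of this compartment, 3 fell, while Dnajc14, described further below, rose. The element was not found in the windows of Dnajb9, Dnajc10 and Dnajb11. Dnajb9 (ERdj4, a J protein that acts on BiP and on misfolded proteins; chromosome 12, 44205897 to 44210068, minus strand) was at 315, 468 and 454 CPM in CLP, 190.3, 307 and 335 in ILCP, and 96.2 and 114 in ILC1/3P. CLP, ILCP and ILC1/3P stepped down, with CLP and ILCP overlapping and ILC1/3P apart from both. It fell against CLP (log2 fold change -1.97 ± 0.32, adjusted p = 0.0011) and against ILCP (log2 fold change -1.40 ± 0.31, adjusted p = 0.0108), the latter not with the length trend removed (adjusted p = 0.103). Dnajb9 was no longer called against ILCP with ILC1/3P library 1 left out (adjusted p = 0.0597). Dnajc10 (ERdj5, a disulfide reductase; chromosome 2, 80315466 to 80354043, plus strand) was at 105, 66.04 and 78.3 CPM in CLP, 49.1, 59.7 and 70.5 in ILCP, and 17.9 and 11.3 in ILC1/3P. It fell in both comparisons (log2 fold change -2.498 ± 0.40, adjusted p = 0.00107 against CLP; log2 fold change -2.02 ± 0.39, adjusted p = 0.00563 against ILCP), also with the length trend removed (log2 fold change -2.18 and -1.78, adjusted p = 0.00186 and 0.00905). Hspa13 (STCH, an HSP70 of microsomes) was at 31.2, 45.8 and 24.9 CPM in CLP, 36.8, 32.3 and 42.4 in ILCP, and 11.8 and 8.04 in ILC1/3P and fell in both (log2 fold change -1.77 ± 0.48, adjusted p = 0.0208 against CLP; log2 fold change -1.90 ± 0.49, adjusted p = 0.021 against ILCP). Hspa13 was no longer called against CLP with CLP library 2 or ILC1/3P library 2 left out (adjusted p up to 0.109), nor against ILCP with ILCP library 1 or 3 or ILC1/3P library 2 left out (adjusted p up to 0.113). Dnajb11 (ERdj3, a co-factor of BiP) was at 112, 67.3 and 88.2 CPM in CLP, 103, 80.1 and 74.2 in ILCP, and 120.4 and 91.7 in ILC1/3P, with overlapping groups (adjusted p = 0.618 against CLP).

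**Figure D5:**
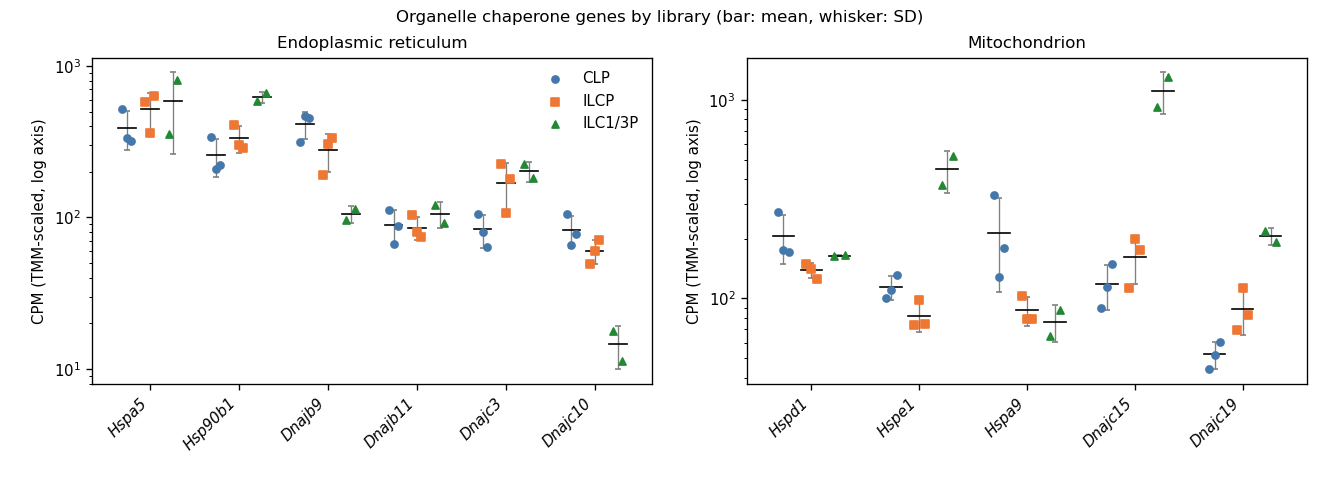
CPM (TMM-scaled, log axis) of chaperone genes of the endoplasmic reticulum (left) and the mitochondrion (right), 1 point per library, with the mean (bar) and SD (whisker) of each population (n = 3, 3 and 2 in the order plotted). ILC1/3P lies lowest for Dnajb9 and Dnajc10 and highest for Hsp90b1, Hspe1, Dnajc15 and Dnajc19.

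The wider list held 22 genes of folding in this compartment and of the unfolded protein response. In ILC1/3P against CLP, 4 were higher and 3 lower (18.2% and 13.6%, beside 11.8% and 11.7% of all genes). Against ILCP, 3 were higher and 2 lower (13.6% and 9.09%, beside 8.06% and 8.25%). With TMM scaling these shares were near those of all genes. On the TMM scale the list's summed level did not overlap between populations, at 2891 to 3506 CPM in CLP, 3747 to 4415 in ILCP and 5821 to 6201 in ILC1/3P. With totals unscaled the ranges of the populations overlapped. Manf, a secreted stress-induced factor, was at 169, 217 and 228 CPM in CLP, 273, 404 and 327 in ILCP, and 1182 and 2024 in ILC1/3P. ILC1/3P lay above every other library (log2 fold change 2.97 ± 0.29, adjusted p = 4.93e-05 against CLP; log2 fold change 2.26 ± 0.29, adjusted p = 0.000713 against ILCP). Sdf2l1, a partner of ERdj3, was at 64.4, 87.02 and 72.5 CPM in CLP, 62.3, 89.7 and 86.7 in ILCP, and 391 and 661 in ILC1/3P and rose as well (log2 fold change 2.82 ± 0.30, adjusted p = 8.35e-05 against CLP; log2 fold change 2.72 ± 0.30, adjusted p = 0.00033 against ILCP). The cyclophilin Ppib rose (log2 fold change 1.67, adjusted p = 0.000296 against CLP; 0.98, adjusted p = 0.0115 against ILCP). Herpud1, which works in degradation from the compartment, was at 309, 304 and 288 CPM in CLP, 152, 189.9 and 212 in ILCP, and 66.5 and 63.3 in ILC1/3P and fell (log2 fold change -2.21 ± 0.26, adjusted p = 0.000156 against CLP; log2 fold change -1.51 ± 0.25, adjusted p = 0.00271 against ILCP). The oxidase Ero1l was the only gene of the list called in ILCP against CLP (2.94, adjusted p = 0.000187). Scaling by library size alone, the split against CLP was 4 higher and 4 lower (18.2% each, beside 7.04% and 20.9% of all genes). Against ILCP it was 2 higher and 3 lower (9.09% and 13.6%, beside 3.53% and 15.9%). With the length trend removed, 6 were higher and 2 lower against CLP (27.3% and 9.09%, beside 10.7% and 9.9%). Against ILCP that setting gave 3 higher and 2 lower (13.6% and 9.09%, beside 6.49% and 6.17%).

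In the mitochondrion the HSP10 gene rose and its HSP60 partner did not. The 2 are a head-to-head pair on chromosome 1, Hspe1 at 55088132 to 55091307 on the plus strand and Hspd1 at 55077835 to 55088243 on the minus strand, and the RefSeq starts used for their shared window are 216 bases apart. Their products form the ring and the lid of the mitochondrial chaperonin. Hspd1 has another RefSeq start, which lies past the Hspe1 start, and exons of the 2 genes overlap on opposite strands, so reads may be shared. The shared stretch is printed because it lies between the 2 starts used, from 200 bases before to 1 before the Hspe1 start (chr1:55087948-55088147, plus strand of GRCm38.p6). Its capitals mark 3 overlapping matches to heat shock element core letters, TTCNNGAA at -89 to -82 and -79 to -72 and GAANNTTC at -84 to -77. Searched on both strands, GAANNTTC was found in 7.86% of all windows and in 17 of the 86 windows of the members (15 of the 67 members with one). TTCNNGAA was found in 8.52% of all windows and in 10 of these 86 (8 members).
Hspe1: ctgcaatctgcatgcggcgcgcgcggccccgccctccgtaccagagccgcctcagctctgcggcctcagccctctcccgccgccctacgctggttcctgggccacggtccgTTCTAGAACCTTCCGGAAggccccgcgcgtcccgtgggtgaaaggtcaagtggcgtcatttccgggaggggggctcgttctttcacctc

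Hspe1 (HSP10) stood at 101, 110.01 and 131 CPM in CLP, 73.4, 98.4 and 74.2 in ILCP, and 371 and 521 in ILC1/3P. Both ILC1/3P libraries lay far above every other, with no overlap. It rose against CLP (log2 fold change 1.97 ± 0.27, adjusted p = 0.000322) and against ILCP (log2 fold change 2.44 ± 0.27, adjusted p = 0.00033), and with the length trend removed by 0.87 and 1.55 on the log2 scale (adjusted p = 0.0152 and 0.00171). Hspd1 (HSP60) was at 272, 176 and 172 CPM in CLP, 149, 141 and 126 in ILCP, and 164 and 165 in ILC1/3P. CLP was highest, ILCP lowest and ILC1/3P between them, with no call (log2 fold change -0.33 ± 0.27, adjusted p = 0.414 against CLP; log2 fold change 0.25 ± 0.27, adjusted p = 0.592 against ILCP). The sign of Hspd1 was not fixed: with library size alone it was -1.03 against CLP (adjusted p = 0.0293) and -0.39 against ILCP, and with the length trend removed 0.18 against CLP. Pseudogenes of both are in the table, and reads may be shared with them: Hspe1-ps3 had 32, 17 and 42 counts in CLP, 24, 44 and 27 in ILCP, and 120 and 125 in ILC1/3P, and Hspd1-ps3 had 791, 240 and 331 counts in CLP, 312, 267 and 257 in ILCP, and 179 and 160 in ILC1/3P.

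Among the members with counts in every library, the largest rise in ILC1/3P against CLP was that of Dnajc15 (MCJ), a J protein of the inner mitochondrial membrane known to restrain respiratory complex I. Dnajc15 (chromosome 14, 77826217 to 77874917, minus strand) was at 89.9, 115 and 149.9 CPM in CLP, 113, 199 and 176 in ILCP, and 922 and 1296 in ILC1/3P. CLP and ILCP overlapped, and the ILC1/3P mean of 1109 ± 264 CPM (SD, n = 2) compared with 118 ± 30.1 CPM (SD, n = 3) in CLP and 163 ± 44.7 CPM (SD, n = 3) in ILCP. The rise passed in both comparisons (log2 fold change 3.23 ± 0.32, adjusted p = 4.96e-05 against CLP; log2 fold change 2.77 ± 0.31, adjusted p = 0.000395 against ILCP). Its length is 6193 bases by the longest coding transcript and 648 by the deposited FPKM. Genes under 1000 bases had a median of 1.02 against CLP and 0.85 against ILCP. Dnajc19, a J protein of the mitochondrial import motor, was at 44.2, 52.1 and 60.6 CPM in CLP, 69.5, 113 and 82.2 in ILCP, and 219.6 and 192 in ILC1/3P, and it rose against both (log2 fold change 1.98 ± 0.30, adjusted p = 0.000654 against CLP; log2 fold change 1.22 ± 0.29, adjusted p = 0.0158 against ILCP). Dnajc19 was no longer called against ILCP with ILCP library 1 or 3 or ILC1/3P library 1 left out (adjusted p up to 0.0651). The pseudogene Dnajc19-ps, with which reads may be shared, moved with it at 380, 354 and 521 counts in CLP, 495, 745 and 602 in ILCP, and 1751 and 1238 in ILC1/3P. The mitochondrial HSP70 gene Hspa9 (mortalin) went down instead, at 332, 128 and 180.3 CPM in CLP, 103, 78.6 and 79.3 in ILCP, and 64.8 and 87.7 in ILC1/3P. All CLP libraries lay above all others, and it fell in ILCP against CLP (log2 fold change -1.29 ± 0.34, adjusted p = 0.043) and in ILC1/3P against CLP (log2 fold change -1.48 ± 0.40, adjusted p = 0.0181). Hspa9 was no longer called in ILCP against CLP with CLP library 1 or 3 or any 1 ILCP library left out (adjusted p up to 0.179), nor against CLP with CLP library 1 or ILC1/3P library 1 left out (adjusted p up to 0.103). The first of these was also lost with library size alone and in limma (adjusted p = 0.0604 and 0.0733), and the second with the length trend removed (adjusted p = 0.0734). ILC1/3P and ILCP overlapped (adjusted p = 0.791).

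Of 13 genes of mitochondrial proteases and import tested, 1 rose and 1 fell in ILC1/3P against CLP (7.69% each, beside 11.8% and 11.7% of all genes), 0 rose and 1 fell against ILCP (8.06% and 8.25% of all genes), and edgeR called 0 in ILCP against CLP (2 at an unadjusted p under 0.05; DESeq2 0). Clpx, the unfoldase of the ClpXP protease, was at 137, 106 and 52.2 CPM in CLP, 86.9, 50.2 and 113 in ILCP, and 17.4 and 21.3 in ILC1/3P and fell (log2 fold change -2.35 ± 0.49, adjusted p = 0.00498 against CLP; log2 fold change -2.11 ± 0.49, adjusted p = 0.0129, up to 0.063 with 1 library left out against ILCP). Timm23, the channel of the inner membrane translocase, was at 14.3, 14.3 and 17.8 CPM in CLP, 25.2, 28.6 and 29.00 in ILCP, and 58.1 and 47.04 in ILC1/3P and rose against CLP (log2 fold change 1.76 ± 0.40, adjusted p = 0.00823). With library size alone the split against CLP was 0 higher and 5 lower (38.5% lower, beside 20.9% of all genes). Reads from the mitochondrial genome made up 2.70% to 4.53% of CLP, 2.71% to 4.13% of ILCP and 4.91% to 5.39% of ILC1/3P counts, and their part in these levels was not tested.

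Other J proteins that rose in ILC1/3P serve varied compartments. Dnajc4 was at 8.50, 7.91 and 10.1 CPM in CLP, 18.1, 15.5 and 21.1 in ILCP, and 47.5 and 87.2 in ILC1/3P. The populations stepped up without overlap, and the rise passed against CLP (log2 fold change 2.93 ± 0.46, adjusted p = 0.000918) and ILCP (log2 fold change 1.88 ± 0.45, adjusted p = 0.0151). Dnajc4 was no longer called against ILCP with ILC1/3P library 2 left out (adjusted p = 0.167). The second call was also lost with library size alone (adjusted p = 0.0921) and with the length trend removed (adjusted p = 0.0798). Dnajc14, a J protein of the endoplasmic reticulum membrane, was at 98.3, 139 and 138 CPM in CLP, 171, 247 and 162 in ILCP, and 394 and 356 in ILC1/3P and rose against both (log2 fold change 1.59 ± 0.27, adjusted p = 0.00157 against CLP; log2 fold change 0.96 ± 0.27, adjusted p = 0.0335 against ILCP). Dnajc14 was no longer called against ILCP with CLP library 2, ILCP library 1 or 3 or either ILC1/3P library left out (adjusted p up to 0.115). It overlaps Sarnp on the same strand and Ormdl2 on the other, which rose by 1.73 and 1.57 on the log2 scale against CLP, so reads may be shared. Dnajc8, a spliceosome-associated J protein, was at 466, 434 and 414 CPM in CLP, 645, 651 and 490.5 in ILCP, and 667 and 853 in ILC1/3P, with a rise against CLP (log2 fold change 0.79 ± 0.23, adjusted p = 0.0286) that was 0.10 with library size alone. Dnajc8 was no longer called against CLP with CLP library 2 or 3 or ILC1/3P library 2 left out (adjusted p up to 0.186). Dnajc9, a histone chaperone, was at 183, 105 and 136 CPM in CLP, 174, 182 and 122 in ILCP, and 189 and 217 in ILC1/3P. CLP and ILCP overlapped, and on the TMM scale both ILC1/3P libraries lay above every other library, without a call (adjusted p = 0.226 against CLP). In the deposited FPKM, with unscaled totals, Dnajc9 was at 87.2 and 89.1 in ILC1/3P, within the 70.3 to 138 of CLP.

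A few members at low levels appeared or disappeared. Dnajb13, a protein of motile cilia and sperm tails, was at 1.36, 0 and 0 CPM in CLP, 8.96, 7.19 and 14.9 in ILCP, and 16.3 and 13.5 in ILC1/3P. A single CLP library had any count, and it rose in ILC1/3P against CLP (log2 fold change 4.88 ± 1.36, adjusted p = 0.0228). Dnajb13 was no longer called against CLP with CLP library 2 or 3 left out (adjusted p up to 0.0565). It lies across Ucp2 on the other strand, which fell (log2 fold change -1.70). Dnajb3 had 33, 32 and 23 counts in CLP, 31, 14 and 35 in ILCP, and 0 and 0 in ILC1/3P. With no count in ILC1/3P and a floor of 3 counts over the group, the level was at least 14.4-fold lower than in CLP (adjusted p = 0.0256) and at least 12.9-fold lower than in ILCP (adjusted p = 0.0382). Dnajb3 was no longer called against CLP with CLP library 1 or 2 or either ILC1/3P library left out (adjusted p up to 0.0791), nor against ILCP with any 1 CLP library, ILCP library 1 or 3 or either ILC1/3P library left out (adjusted p up to 0.107). Hspbap1, named for binding the small heat shock protein HSPB1, had 67, 24 and 19 counts in CLP, 128, 5 and 69 in ILCP, and 0 and 0 in ILC1/3P. It was at least 17.998-fold lower in ILC1/3P than in CLP (adjusted p = 0.0278) and at least 32.5-fold lower than in ILCP (adjusted p = 0.0246). Hspbap1 was no longer called against CLP with CLP library 1 or 2 or either ILC1/3P library left out (adjusted p up to 0.0931), nor against ILCP with ILCP library 1 or 3 or either ILC1/3P library left out (adjusted p up to 0.085). These floors cover counting error only, and the cDNA was amplified by PCR, so counts are not independent molecules.

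The small heat shock proteins, holdases best known from muscle, lens and stressed cells, were nearly silent. Of 8 genes, 3 had no count in any library and 2 passed the filter. Hspb11, which despite its name is a component of intraflagellar transport, was at 13.5, 23.5 and 27.6 CPM in CLP, 33.1, 72.3 and 26.5 in ILCP, and 50.99 and 40.4 in ILC1/3P, without a call (adjusted p = 0.144 in ILC1/3P and 0.238 in ILCP, against CLP). Hspb6 was at 5.10, 3.86 and 12.01 CPM in CLP, 0, 0.415 and 19.99 in ILCP, and 5.26 and 10.9 in ILC1/3P, scattered within each population (adjusted p at least 0.95). Hspb1 (HSP25), a classic heat shock gene, had 0, 0 and 0 counts in CLP, 5, 0 and 0 in ILCP, and 0 and 12 in ILC1/3P. Also below the filter were Hspb2, Hspb3, Hspb7, Hspb8, Hspb9, Hspa1a, Hspa1l, Hspa12a, Hspa12b, Dnajb5, Dnajb8, Dnajc5b, Dnajc5g, Dnajc6 and Dnajc22. Hsf1, the main transcription factor of the heat shock response and named here after its values were seen, was at 40.1, 26.7 and 25.8 CPM in CLP, 26.7, 12.2 and 19.6 in ILCP, and 2.30 and 10.9 in ILC1/3P and fell in ILC1/3P against CLP (log2 fold change -2.24 ± 0.73, adjusted p = 0.044, up to 0.165 with 1 library left out). With the length trend removed the Hsf1 call was lost (adjusted p = 0.105).

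Between genes, levels can be ordered only per length, and the order depends on the length taken. In the FPKM the authors deposited (a level per length of annotated exon and per library total), averaged over the 3 group means, Dnajc15 was first at 562, followed by Hspa8 at 157, Dnajb9 at 151, Cct5 at 148 and Cct2 at 146. Dividing CPM by the longest coding transcript instead put Hspa8 first at 590.1 CPM per kilobase, with Cct5 at 316, Hspe1 at 276 and Dnajc15 at 74.8. The lengths behind the 2 scales are 648 and 6193 bases for Dnajc15.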

How the data were processed

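The authors deposited read counts per gene and FPKM for 8 libraries. Per the labels' protocols, cDNA was made with a SMARTer Ultra Low RNA kit directly in cell lysate, amplified by PCR and sequenced on a NovaSeq6000. The build is mm10 per the submitters' processing notes. The sources used here do not name the aligner, the counter, the annotation or the use of strand. The deposited FPKM values use plain library totals and the annotated exon length.

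For the tests, the deposited counts went into edgeR (version 4.0.16, under R 4.3.3) with filterByExpr, TMM, 1 mean per group over all 8 libraries and a robust quasi-likelihood F-test, with Benjamini-Hochberg adjustment over 13436 genes. The residual degrees of freedom were 5. Fits that leave 1 ILC1/3P library assume that it varies like the other groups. Alternatives were DESeq2 1.42.0, limma 3.58.1 on log2(FPKM + 1), other scalings and filters, a replicate block, and each library left out. Removal of trends on length and GC content was added after seeing the data, and used 13390 genes with an annotated transcript. All value columns were matched to samples.

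The genes followed and the lists were chosen with earlier results of these data known. Genes named with values are every tested HSP90, HSP70, HSP110, HSP60 and HSP10, CCT and small heat shock member, each called DNAJ member, the 3 most abundant DNAJA, DNAJB and DNAJC members by FPKM, and up to 4 called genes per list of related genes and comparison with the smallest p. The marker lists of sorted and other cells were outside this rule. Exons of 29 of the 82 members overlap another gene. Protein sequences were not used here. The promoter windows come from RefSeq.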

Additional observations from a re-analysis of the deposited data

How the results depend on the processing

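With 2 ILC1/3P libraries, calls against CLP and ILCP rest on few values, and a difference that missed the threshold is not shown to be absent. In ILCP against CLP, where 1 chaperone gene was higher and 1 lower, the counts were 0 and 0 with library size only, 3 and 2 with no filter, 3 and 3 with DESeq2, 2 and 0 with limma on log2 FPKM, and 0 and 2 with the GC trend removed; with the length trend removed 2 were higher. All genes called there numbered 912, and 1604 with DESeq2 and 1451 with limma. In ILC1/3P against CLP, library size only left 5 of 10 higher, and with the length trend removed 8 of 16 were lower. In ILC1/3P against ILCP, 7 higher became 2 with library size only and 3 with limma, and 11 lower became 18 with library size only and 6 with the length trend removed. Leaving out 1 library at a time gave 0 to 2 higher and 0 to 1 lower in ILCP against CLP (587 to 1114 of all genes), 6 to 10 and 7 to 15 in ILC1/3P against CLP (2285 to 3197), and 3 to 7 and 3 to 10 in ILC1/3P against ILCP (1333 to 2161). Signs reversed for uncalled genes: against CLP, Hspd1 was 0.18 with the length trend removed, Hspa5 was -0.15 with library size only, -0.17 with limma, and from -0.13 to 1.05 when 1 library was left out (without ILC1/3P replicate 2 and 1), and Hsp90aa1 was -0.28 and -0.30 with library size only and limma, and against ILCP Hspd1 was -0.39 and -0.38. The cause was not tested. Whether replicate numbers pair the libraries was not settled. Deviations of same-numbered libraries from their group means correlated at -0.033 to 0.087. The highest values were those of CLP and ILCP replicates 1 (0.087) and replicates 2 (0.057), while CLP replicate 3 correlated best with ILCP replicate 2. Such deviations cancel within a group of 2 or 3 libraries, so these values cannot show that libraries are unpaired. With the replicate number as a block, calls numbered 0 higher and 0 lower in ILCP against CLP, 9 and 14 in ILC1/3P against CLP, and 6 and 10 in ILC1/3P against ILCP.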
